A study of Homo sapiens with 6 samples.

Results

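The ERBB family comprises the receptor tyrosine kinases EGFR, ERBB2, ERBB3 and ERBB4 and the growth factors that bind them, of which AREG, EREG, TGFA, HBEGF and BTC were examined with the receptors. These 9 genes were taken by name from the 58780 human genes in the tables, and 8 of them were among the 19725 genes with enough reads to test. RNA was sequenced from HCT116, a human colorectal carcinoma cell line, in 3 biological replicates given auxin for 16 h and 3 labelled as DMSO control. The sample titles give no time for DMSO. Auxin is a plant hormone with which a protein fused to a degron can be destroyed on demand. The labels name neither the protein targeted nor an engineered allele, so nothing beyond the treatment separates the groups and what they share in genotype is not stated. All 6 libraries come from 1 cell line, and the title of the series is about perispeckle networks, at the rim of the nuclear bodies rich in splicing factors.

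ERBB receptors sit in the plasma membrane and pair with each other when a ligand binds. EGFR binds AREG, EREG, TGFA, HBEGF and BTC, ERBB4 also binds some of these, ERBB2 has no known ligand and acts as the preferred partner of the others, and ERBB3, which binds neuregulins, has a weak kinase and signals through PI3-kinase once phosphorylated by its partner. The ligands are made as membrane-anchored precursors and are released by proteases. In the gut epithelium this system drives growth and repair, and AREG and EREG are well known for their expression in colorectal tumours.

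Several results below turn on transcripts that keep an intron. Retained-intron transcripts are an annotation class of GENCODE 29, the gene catalogue whose identifiers the tables use, and they hold sequence that the coding transcript removes. Splicing normally cuts at a GT at the start and an AG at the end of an intron, and these letters are in capitals in the sequences that follow. The sequences are shown because they tell a retained-intron transcript from a spliced one. Each is from GRCh38, plus strand, read 5′ to 3′, with 20 bases of coding exon on either side of the intron, which is numbered along the full-length coding transcript (ERBB2-201 or ERBB3-201). ERBB2 intron 13 (chr17:39716434-39716514) is kept in ERBB2-212 and ERBB2-214, ERBB2 intron 21 (chr17:39725205-39725326) in ERBB2-214, and ERBB3 intron 5 (chr12:56087643-56087794) in ERBB3-210. For ERBB2 intron 8 (chr17:39712048-39712321), kept in ERBB2-222, only the junction at its start is shown, with 20 bases of exon and the first 20 of the intron.
ERBB2 intron 8 start: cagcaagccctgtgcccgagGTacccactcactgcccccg
ERBB2 intron 13: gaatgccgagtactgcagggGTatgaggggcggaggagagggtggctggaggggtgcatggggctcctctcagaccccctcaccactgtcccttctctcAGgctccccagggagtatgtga
ERBB2 intron 21: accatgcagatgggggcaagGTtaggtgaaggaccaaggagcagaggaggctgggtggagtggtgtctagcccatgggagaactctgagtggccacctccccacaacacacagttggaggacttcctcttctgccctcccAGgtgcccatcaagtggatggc
ERBB3 intron 5: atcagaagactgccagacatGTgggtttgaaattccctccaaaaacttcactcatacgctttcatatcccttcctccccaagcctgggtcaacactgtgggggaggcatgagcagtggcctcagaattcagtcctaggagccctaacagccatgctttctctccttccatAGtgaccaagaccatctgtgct
ERBB2-201 has 26 introns, and 5 of them, of 81 to 361 bases, lie whole inside a retained-intron transcript. ERBB3-201 has 27 introns, and 3, of 107 to 212 bases, do so. All 8 of these introns begin with GT and end with AG.

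Total expected counts ranged from 234037969 to 625895062 per library, with replicate 1 the deepest of both groups, so sampling of reads limits only the rarest transcripts. Across all genes tested, 25.4% were called higher and 26.9% lower after auxin (edgeR's quasi-likelihood test, Benjamini-Hochberg adjusted p under 0.05), so a call in either direction was common. The balance moved with scaling. Higher genes were 48.5% of calls, against 59.7% with upper-quartile factors, where the median gene shifted by 0.12 on the log2 scale, and 24.6% on the log2(TPM + 1) scale, where it shifted by -0.14. Of 8 epithelial markers, 7 were tested and 6 were higher after auxin, and their summed level was 2761 to 3121 CPM in DMSO and 3725 to 4011 CPM after auxin. Of 10 markers of blood, vessel and stromal cells, 6 were tested, 2 were higher (PDGFRB and ACTA2) and 1 lower (DES), with sums of 10.3 to 11.8 and 16.0 to 16.7 CPM. ACTA2 overlaps STAMBPL1 on the opposite strand over 40080 bases, and the use of strand in the counting is not given. PTPRC and CD3E, which define leukocytes and T cells, were listed at 0 TPM in all 6 libraries. Their part in the results was not tested.

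Level per transcript length is given by TPM, the deposited abundance scaled by length, and it is the scale used to compare genes. In DMSO the order was AREG at 418.0 ± 14.8, EREG at 278.7 ± 46.3, EGFR at 70.0 ± 18.8, TGFA at 47.1 ± 10.4, HBEGF at 14.7 ± 3.8, ERBB2 at 10.6 ± 2.7, ERBB3 at 7.56 ± 2.74 and BTC at 3.10 ± 0.48 TPM (mean ± SD, n = 3). Ranges of EGFR and TGFA overlapped narrowly, and those of HBEGF, ERBB2 and ERBB3 overlapped in turn. Within each of the 3 DMSO libraries EGFR was nevertheless above TGFA, HBEGF above ERBB2 and ERBB2 above ERBB3, and no test between genes was made. ERBB4 was listed at 0 TPM in every library. After auxin the order was the same for the first 5, while BTC, at 5.18 ± 0.39 TPM, lay above ERBB2 at 2.45 ± 0.99 and ERBB3 at 1.59 ± 0.58 TPM (mean ± SD, n = 3).

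**Figure D1:**
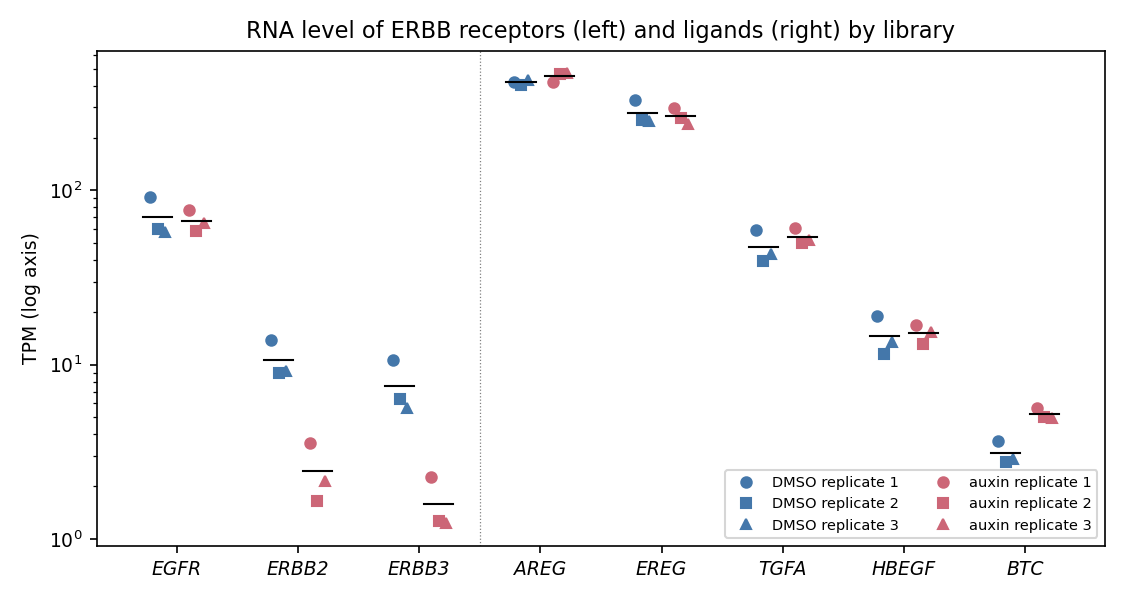
RNA level in TPM (log axis) of the 8 tested members, receptors left and ligands right of the dotted line, for each DMSO (blue) and auxin (red) library, with the mean as a black bar and ERBB4, listed at 0, left out. ERBB2 and ERBB3 lie lower in every auxin library, BTC lies higher, and the others overlap between groups.

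The make-up of the receptor RNA differed between the groups. EGFR made up 78.9%, 79.8% and 79.6% of the summed receptor TPM in DMSO replicates 1, 2 and 3 and 93.0%, 95.3% and 95.1% after auxin. All 3 auxin libraries were above all 3 DMSO libraries in this share, and a two-sided exact permutation test of 3 against 3 cannot give a p below 0.1. The ratio of EGFR to ERBB2 TPM was 6.57 ± 0.22 in DMSO and 29.3 ± 7.0 after auxin (mean ± SD, n = 3). ERBB2 and ERBB3, summed over all their transcripts, kept a similar ratio to each other, 1.44 ± 0.17 in DMSO and 1.54 ± 0.23 after auxin, with overlapping ranges. Coding transcripts held 90.2% ± 4.5 of the ERBB2 TPM in DMSO and 34.8% ± 3.4 after auxin. For ERBB3 they held 85.7% ± 2.1 and 65.9% ± 14.5 (mean ± SD, n = 3). The ratio of the sums therefore does not describe coding RNA alone.

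Among the receptors, ERBB2 and ERBB3 fell and EGFR was not called. CPM here is the read count scaled to library size with TMM factors, which correct for a few dominant genes, and it compares a gene with itself. ERBB2 (ENSG00000141736.13, chromosome 17, 39687914 to 39730426, plus strand) was at 39.2, 37.4 and 36.0 CPM in DMSO replicates 1, 2 and 3 and at 6.72, 4.15 and 4.15 CPM after auxin. The groups lay far apart, and auxin replicate 1 was the highest of its group. Its log2 fold change was -2.90 (SE 0.20), 7.47-fold lower, with an adjusted p of 3.21e-05 in edgeR's quasi-likelihood test. ERBB2 is the kinase partner that the other ligand-bound receptors recruit.

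ERBB3 (ENSG00000065361.15, chromosome 12, 56076799 to 56103505, plus strand), the partner that couples to PI3-kinase, was at 20.97, 21.1 and 19.3 CPM in DMSO and 3.30, 2.19 and 2.06 CPM after auxin. Here too the groups did not overlap and auxin replicate 1 was the least reduced. The log2 fold change was -3.02 (SE 0.19), 8.09-fold lower, with an edgeR adjusted p of 2.28e-05. Within same-numbered pairs the log2 ratio of ERBB2 was -2.55, -3.17 and -3.12, and that of ERBB3 was -2.67, -3.27 and -3.23. Both receptors thus fell in each of 3 pairs, and replicate 1 gave the smaller difference for both.

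Falls of this size were uncommon, although falls as such were not. Of the 8 tested members 5 were called, against 52.3% of all genes, 2 as lower and 3 as higher, close to the 26.9% and 25.4% of all genes. CPM ranges of the groups did not overlap in 6 of the 8, 2 lower and 4 higher, against 60.3% of all genes, 30.4% lower and 30% higher. Falls of at least 4-fold, seen in these 2 members, made up only 4.9% of all genes. Only 1.47% of tested genes had a lower log2 fold change than ERBB2 and 1.24% a lower one than ERBB3. The size depended on the scale for ERBB2, at -1.77 on the log2(TPM + 1) scale and -2.18 when counts were corrected for GC content, which is 59.7% over its transcripts. For ERBB3, with a GC content of 53.0%, the values were -1.70 and -2.96. In bulk RNA, fewer cells with a transcript and less RNA per cell cannot be told apart.

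EGFR (ENSG00000146648.17, chromosome 7, 55019021 to 55211628, plus strand), the receptor for all 5 of these ligands, was at 674.5, 654.9 and 616.1 CPM in DMSO and 693.9, 684.6 and 714.0 CPM after auxin. Each auxin library was above each DMSO library, by a margin smaller than the range within DMSO. The log2 fold change of 0.11 (SE 0.06) had an edgeR adjusted p of 0.207, and 0.041 with the replicate number as a block. Its sign was negative, at -0.037 and -0.093, on the log2(TPM + 1) scale and with GC correction. ERBB4 (ENSG00000178568.14, chromosome 2, 211375717 to 212538841, minus strand), the neuregulin receptor with a full kinase, had 8, 0 and 2 reads in DMSO and 14, 6 and 3 after auxin and was below the filter. Without that filter its log2 fold change was 1.31 (edgeR adjusted p 0.307, SE 0.84), so no difference was detectable at these counts.

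**Figure D2:**
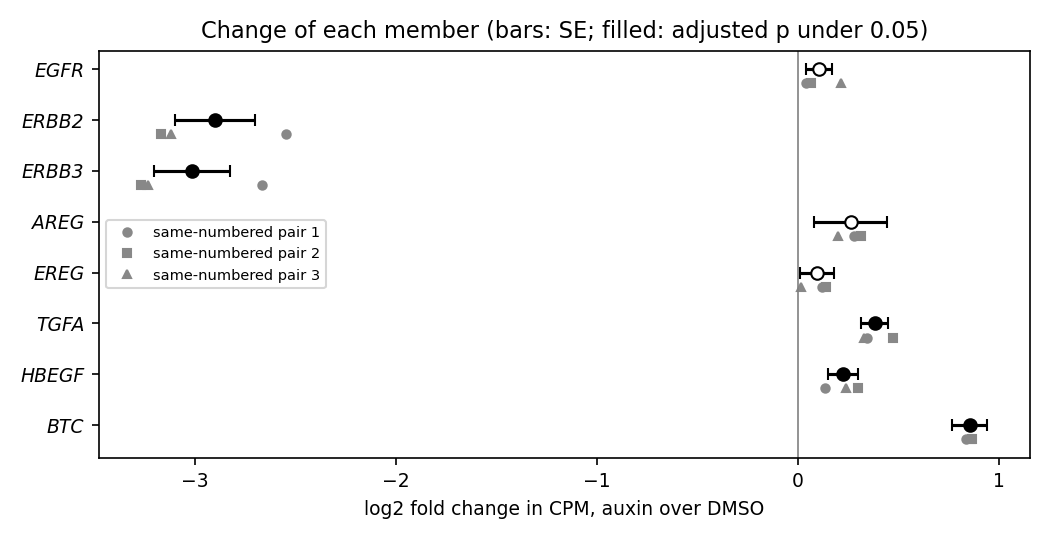
Log2 fold change in CPM, auxin over DMSO, of the 8 tested members (circles, filled where the adjusted p was under 0.05, bars are SE), with the ratio in each same-numbered pair in grey below. ERBB2 and ERBB3 lie at -2.90 and -3.02, all 5 ligands lie above 0 and BTC is the highest at 0.85.

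No ligand was called lower, and 3 of 5 rose. BTC (ENSG00000174808.11, chromosome 4, 74744759 to 74794686, minus strand), betacellulin, which binds EGFR and ERBB4, was at 7.06, 7.89 and 7.69 CPM in DMSO and 12.6, 14.4 and 13.9 CPM after auxin. All auxin values were above all DMSO values with no library apart. BTC rose 1.81-fold, a log2 fold change of 0.85 (edgeR adjusted p 0.000199, SE 0.09). The call was lost on the log2(TPM + 1) scale, at 0.60 and an adjusted p of 0.0581 in limma.

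TGFA (ENSG00000163235.15, chromosome 2, 70447280 to 70554193, minus strand), transforming growth factor alpha, the classic EGFR ligand of epithelia, was at 174.9, 179.0 and 190.3 CPM in DMSO and 221.7, 248.0 and 239.2 CPM after auxin. The groups did not overlap. TGFA rose by 0.38 on the log2 scale (edgeR adjusted p 0.00261, SE 0.07), a call that was lost with GC correction, at 0.18 and an adjusted p of 0.0889, but kept with GC correction and the replicate block (0.18, edgeR adjusted p 0.00567). It was also lost in limma on log2(TPM + 1), at 0.22 and 0.437. HBEGF (ENSG00000113070.7, chromosome 5, 140332843 to 140346631, minus strand), the heparin-binding ligand of EGFR and ERBB4, was at 32.3, 29.1 and 33.2 CPM in DMSO and 35.4, 35.8 and 39.3 CPM after auxin. The groups were separate by a small margin, and the log2 fold change was 0.22 (edgeR adjusted p 0.0405, SE 0.07). That call was lost under 13 of 19 alternatives. Among them were leaving out DMSO replicate 1, 2 or 3 (edgeR adjusted p 0.0662, 0.183 and 0.0789) and auxin replicate 2 or 3 (0.0782 and 0.143).

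The most abundant ligands, AREG and EREG, were not called. AREG (ENSG00000109321.10, chromosome 4, 74445134 to 74455009, plus strand), amphiregulin, was at 348.7, 487.9 and 502.9 CPM in DMSO and 422.7, 606.0 and 577.3 CPM after auxin. Replicate 1 was the lowest of both groups and the groups overlapped. The log2 fold change was 0.26 (edgeR adjusted p 0.266, SE 0.18), and with the replicate number as a block, which removes that shared deviation, the same 0.26 had an edgeR adjusted p of 0.000144. EREG (ENSG00000124882.3, chromosome 4, 74365143 to 74388751, plus strand), epiregulin, was at 1151, 1294 and 1232 CPM in DMSO and 1252, 1427 and 1244 CPM after auxin. These ranges overlapped, and the log2 fold change was 0.09 (SE 0.08) with an edgeR adjusted p of 0.385, or 0.040 with the replicate block. On the log2(TPM + 1) scale EREG was at -0.058. Together AREG and EREG held 91.5% ± 1.2 of the TPM of the 5 ligands in DMSO and 90.6% ± 0.9 after auxin (mean ± SD, n = 3), and the sum of the 5 ligands was 761.6 ± 65.3 and 792.5 ± 6.3 TPM, with overlapping ranges.

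With the replicate block, 6 members were called higher (EGFR and all 5 ligands) in place of 3, and the 2 lower calls were the same genes. GC correction left BTC as the 1 member called higher, and with GC correction and the replicate block 2 were called, BTC and TGFA (edgeR adjusted p 3.71e-09 and 0.00567).

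AREG, EREG and BTC lie in 1 cluster on chromosome 4. The gene between the cluster and its upstream neighbour, EPGN, which encodes epigen, another EGFR ligand, had 2 to 34 reads a library and was not called (log2 fold change 0.25, edgeR adjusted p 0.75). The flanking protein-coding genes MTHFD2L and PARM1 rose by 0.24 and 0.17 on the log2 scale (edgeR adjusted p 0.0241 and 0.0362). The 250 bases before the start of AREG (chr4:74444886-74445135) and of EREG (chr4:74364895-74365144), both on the plus strand of GRCh38.p14 and taken from RefSeq, are shown because these ligands were the most abundant members and are close neighbours. Windows were found for 8 of 9 members. Capitals mark 4 motifs searched on both strands by their letters, the TATA box TATAAA, the cyclic AMP response element TGACGTCA, the GC box GGGCGG and the E box CACGTG, and no matches in these windows overlapped.
AREG: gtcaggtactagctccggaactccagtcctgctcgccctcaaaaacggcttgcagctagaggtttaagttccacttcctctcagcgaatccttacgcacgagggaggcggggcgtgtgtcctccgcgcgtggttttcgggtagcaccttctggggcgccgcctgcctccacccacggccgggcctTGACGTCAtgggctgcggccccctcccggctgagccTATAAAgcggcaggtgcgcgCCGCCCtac
EREG: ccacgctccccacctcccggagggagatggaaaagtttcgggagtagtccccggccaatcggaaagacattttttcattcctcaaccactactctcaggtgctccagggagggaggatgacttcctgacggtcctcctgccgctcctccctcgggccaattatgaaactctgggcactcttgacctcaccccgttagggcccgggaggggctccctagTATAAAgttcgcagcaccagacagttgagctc
Both windows held TATAAA near their end, as did 10.8% of all 34943 windows. AREG also held TGACGTCA, found in 1.63% of windows, and 1 GC box, found in 42.5%, and EREG held neither. Neither held CACGTG, which was in 6.32%. These are matches of letters and were not tested for binding.

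The transcript tables split the reads of each gene among its annotated transcripts. Of 85 annotated transcripts of the members, 50 were tested for their share of the gene's reads, and 8 had a higher and 2 a lower share after auxin (limma on the log2 odds of the share, adjusted p under 0.05), against 9.66% of all transcripts in either direction, 5.95% higher and 3.71% lower. All 10 belonged to ERBB2 (7) or ERBB3 (3). No transcript of EGFR, AREG, EREG, TGFA, HBEGF or BTC was called. Each of these genes was dominated by 1 coding transcript, from BTC-201 at 90.6% in DMSO and 87.0% after auxin to AREG-201 at 99.6% in both groups.

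Reads assigned to ERBB2 coding transcripts were at 36.6, 35.8 and 35.7 CPM in DMSO and 4.15, 2.83 and 2.56 CPM after auxin. The CPM of transcript classes were scaled separately from those of genes, so the 2 sets are close but do not add up exactly. They fell by 3.50 on the log2 scale (edgeR adjusted p 3.68e-05, SE 0.20), where the coding class was lower in 30.6% of genes. Reads assigned to its retained-intron transcripts were at 1.76, 0.815 and 0.772 CPM in DMSO and 2.21, 1.36 and 1.59 CPM after auxin. Here DMSO replicate 1 lay inside the range after auxin, and the log2 fold change of 0.62 (SE 0.37) was not called (edgeR adjusted p 0.245). The level was higher after auxin in 3 of 3 pairs of same-numbered libraries, and it was called higher with the replicate block (0.69, edgeR adjusted p 0.0154) and without DMSO replicate 1 (1.11, edgeR adjusted p 0.0201). Over all genes with such transcripts, this class was called higher in 8.94% and lower in 11.1%. The 2 classes of ERBB2 RNA did not change in proportion.

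The share of retained-intron transcripts in the ERBB2 TPM was 13.4%, 5.04% and 7.97% in DMSO and 64.1%, 60.2% and 67.3% after auxin. The groups were far apart, with DMSO replicate 1 the highest control. The log2 odds, taken on counts, rose by 4.21 (SE 0.34, limma adjusted p 0.000179), a test added after the data were seen. As a share of counts, which favours long transcripts, the class held 4.53%, 2.199% and 2.10% of ERBB2 reads in DMSO and 33.8%, 32.1% and 37.9% after auxin. The mean effective length of ERBB2 transcripts in the deposited tables was 3536 ± 60 bases in DMSO and 1857 ± 208 after auxin (mean ± SD, n = 3). TPM divides by this length and CPM does not.

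The retained-intron share of ERBB3 also rose. Its coding reads were at 20.2, 20.5 and 19.4 CPM in DMSO and 3.04, 1.93 and 1.80 CPM after auxin, a fall by 3.14 on the log2 scale (edgeR adjusted p 8.3e-05, SE 0.22). This coding class includes ERBB3-213, which is annotated as coding but keeps intron 22 whole. ERBB3-213 held 22.9% ± 0.4 of the gene's TPM in DMSO and 14.3% ± 2.6 after auxin (mean ± SD, n = 3). Its share of reads moved the other way, by 0.37 in log2 odds (SE 0.22), and was not called (limma adjusted p 0.414). Retained-intron reads of ERBB3 were at 0.544, 0.418 and 0.277 CPM and then 0.180, 0.307 and 0.169 CPM, with overlapping ranges and a log2 fold change of -0.93 (SE 0.35) that was not called (edgeR adjusted p 0.0832). In 3 of 3 pairs the level was lower after auxin, and with the replicate block it was called lower (-0.95, edgeR adjusted p 0.0312). The retained-intron share of ERBB3 TPM was 16.4%, 14.1% and 12.2% in DMSO and 24.8%, 50.8% and 25.0% after auxin. Auxin replicate 2 stood well above the other 2, and all 3 were above DMSO. In that library ERBB3-205 alone, at 46.1 reads with a deposited posterior SD of 12.03 reads, made up 26.5% of the gene's TPM, against 3.28% and 5.74% in the other 2 auxin libraries. The log2 odds rose by 2.24 (SE 0.43, limma adjusted p 0.0086), and without auxin replicate 2 the value was 1.86 (limma adjusted p 0.022), the lowest on leaving out 1 library.

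A higher retained-intron share was called in 17% of the 6744 genes with a testable share, and in 2 of the 6 members with one. In EGFR, AREG, EREG and HBEGF the group means of this share lay between 0.286% and 2.04% of the gene's TPM, and it was not called (limma adjusted p 0.693 to 0.933). The difference between ERBB2 and these members was not tested. Unspliced precursor RNA and mature transcripts that keep an intron cannot be told apart in these tables.

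**Figure D3:**
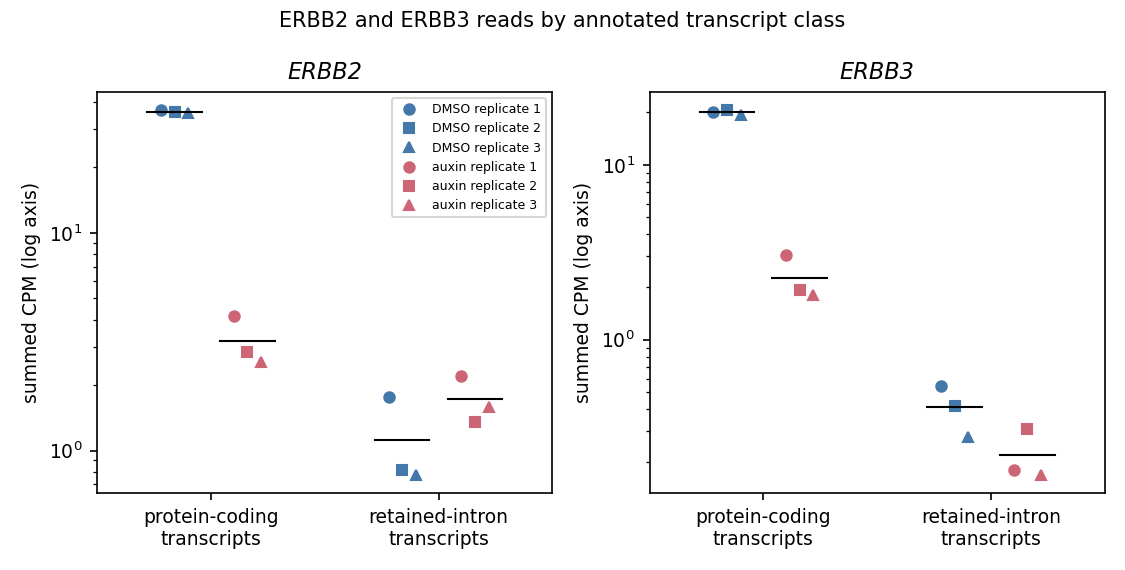
Summed CPM (log axis) of the transcripts of ERBB2 and ERBB3 annotated as protein-coding or retained intron, for each DMSO (blue) and auxin (red) library, with the mean as a bar. Coding reads are lower in all 3 auxin libraries of both genes, and retained-intron reads overlap between groups.

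Among single ERBB2 transcripts, 5 of the 7 annotated as retained intron had a higher share after auxin. ERBB2-222, which keeps intron 8, went from 1.41% ± 1.25 to 14.0% ± 0.6 of the gene's TPM (mean ± SD, n = 3, limma adjusted p 0.0106). ERBB2-214, which keeps introns 12, 13, 21 and 22, went from 1.05% ± 0.15 to 4.09% ± 1.07 (limma adjusted p 0.00259). The others were ERBB2-220 (0.987% to 9.72%), ERBB2-208 (0.513% to 6.56%) and ERBB2-216 (0.580% to 8.11%), with limma adjusted p of 0.00274, 0.00192 and 0.00563. ERBB2-220 and ERBB2-208 hold part of introns 16 and 14, while ERBB2-216 starts at the upstream promoter and touches no exon of ERBB2-201. ERBB2-212 and ERBB2-215 were not called (limma adjusted p 0.0639 and 0.0537).

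Coding transcripts of ERBB2 differed among themselves. ERBB2-201, the full-length form with 27 exons, held 59.2%, 37.8% and 36.3% of the TPM in DMSO and 16.3%, 17.4% and 8.35% after auxin. The groups did not overlap, but the transcript was not called (limma adjusted p 0.189). ERBB2-204, which differs at its start, was at 0 in DMSO replicate 1 and at 25.4% and 24.2% in the other 2, and the posterior SD of its count, the deposited error of read assignment, reached 357.1 reads. The split between these 2 forms is therefore uncertain, whereas the posterior SD of the ERBB2 gene count was 0. ERBB2-205 is a form of 18 exons annotated as coding that ends inside intron 15. Its share rose from 4.95% ± 1.11 to 10.8% ± 2.0 (limma adjusted p 0.00799), while its own level went from 0.507 ± 0.015 to 0.253 ± 0.051 TPM. The share of ERBB2-210 fell from 4.64% ± 2.52 to a listed 0 (limma adjusted p 0.0452).

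**Figure D4:**
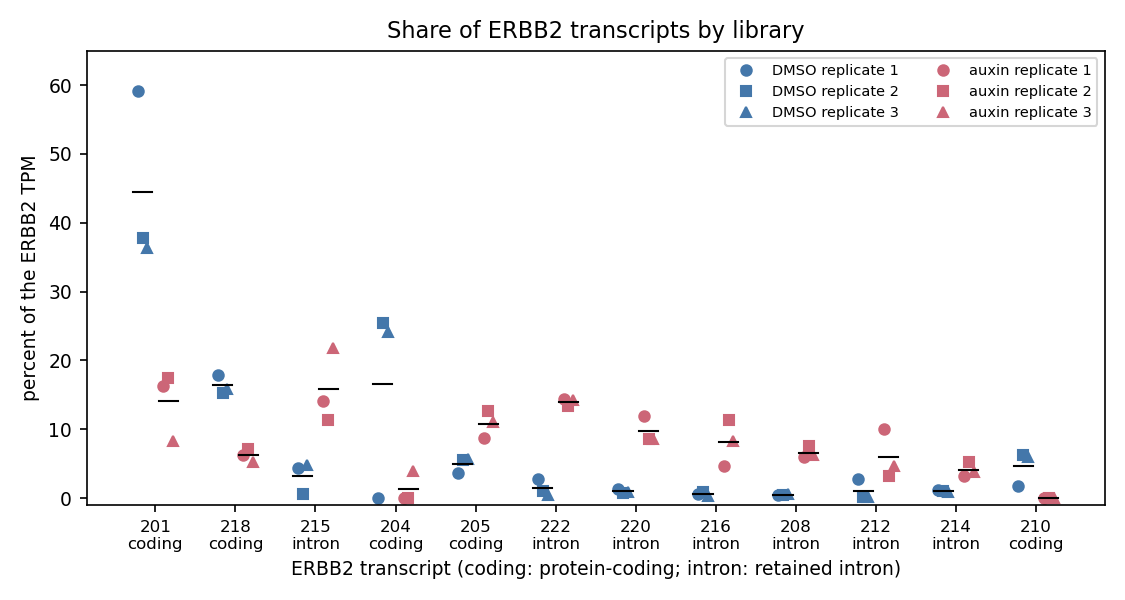
Share of the ERBB2 TPM, in percent, held by each transcript with at least 5% in a group or a called change, for each DMSO (blue) and auxin (red) library, with the mean as a bar. Transcripts marked intron are annotated as retained intron, and ERBB2-222 goes from at most 2.81% in DMSO to at least 13.3% after auxin.

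Start position also differed between the forms. The 4 coding transcripts that start at the central promoter, among them ERBB2-201, had a mean of 34.1 ± 1.4 CPM without and 2.38 ± 0.76 CPM with auxin (mean ± SD, n = 3). The 2 coding transcripts that start at the upstream promoter, ERBB2-205 and ERBB2-219, had a mean of 1.38 ± 0.33 and 0.715 ± 0.031 CPM. Of the other coding transcripts, ERBB2-202, which starts between these promoters, went from 0.313 ± 0.137 to 0.085 ± 0.148 CPM. The 4 that start inside the gene went from 0.319 ± 0.156 to 0.010 ± 0.012 CPM. By contrast, the 2 retained-intron transcripts from the central promoter were at 0.374 ± 0.446 and 0.743 ± 0.395 CPM, with overlapping ranges. These CPM use the scaling of the gene counts. This grouping was made after the values were seen and was not tested.

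In ERBB3, the full-length ERBB3-201 with 28 exons fell from 31.8% ± 5.6 to 8.09% ± 1.53 of the gene's TPM (mean ± SD, n = 3, limma adjusted p 0.0122). The share of ERBB3-202, a form of 3 exons that ends inside intron 3, rose from 13.0% ± 1.2 to 31.4% ± 6.4 (limma adjusted p 0.00451). Its own mean level was not higher, at 1.00 ± 0.46 TPM in DMSO and 0.513 ± 0.263 TPM after auxin, and was not tested. The share of ERBB3-210, which keeps intron 5, rose from 2.02% ± 0.54 to 5.22% ± 1.17 (limma adjusted p 0.047) on only 4.65 to 27.1 reads after auxin. Its own mean level was 0.157 ± 0.099 TPM in DMSO and 0.083 ± 0.042 TPM after auxin. When only transcripts with a mean of at least 50 reads were tested, 5 member transcripts were called in place of 10.

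Genes whose pattern over the 6 libraries was most like that of each member were found by the root mean square difference of centred log2 CPM over 12847 genes. For ERBB2 the nearest was ERBB3 and for ERBB3 the nearest was ERBB2, at a difference of 0.07. APBB1 came next for ERBB2 and SLC37A4 for ERBB3, both also at 0.07. The 2 nearest genes were BANP and EFNA5 for EGFR, PRDX1 and HNRNPCP2 for AREG, MIB1 and ZNF555 for EREG, SERPINB5 and UBE2F for TGFA, MINDY4 and MED27 for HBEGF, and DUS4L and STOM for BTC, at differences of 0.01 to 0.03. These values describe likeness in 6 libraries of 1 contrast.

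Protein-coding genes within 50 kb of ERBB2 and ERBB3 were also read, a set added after the members' values were seen. Beside ERBB2, GRB7, which encodes an adaptor that binds ERBB receptors, fell from 17.9 ± 1.9 to 1.01 ± 0.36 CPM (mean ± SD, n = 3), a log2 fold change of -4.12 (edgeR adjusted p 2.12e-05, SE 0.26). MIEN1 and STARD3 fell by 2.25 and 1.40 on the log2 scale (edgeR adjusted p 6.73e-06 and 0.000151), IKZF3 rose by 1.45 (edgeR adjusted p 0.000158), and TCAP and PGAP3 were not called. MIEN1 shares 1931 bases and PGAP3 8884 bases with ERBB2 on the opposite strand, and since strand use in the counting is not given in the sources used here, reads there cannot be told apart.

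Beside ERBB3, ESYT1 fell by 2.68 on the log2 scale (edgeR adjusted p 1.39e-06), MYL6B by 1.08, IKZF4 by 0.87 and PA2G4 by 0.33. ZC3H10 rose by 0.24 (edgeR adjusted p 0.0455), and RPS26 and RPL41 were not called. AC034102.2 shares 2175 bases of the same strand with the end of ERBB3, and its count ranged from 94 to 14102 reads in DMSO and from 0 to 10204 after auxin.

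Other genes of the pathway were taken from 7 lists with 73 genes, of which 70 were tested. In these lists 16 genes were higher and 24 lower, against 25.4% and 26.9% of all genes, and the median log2 fold change was -0.08, against 0.02 over all genes. Falls of at least 2-fold were seen in 14 of the 70, against 13.3% of all genes, and a rise of that size in 1, against 6.55%. The count of higher genes rested on single libraries, being 7 without DMSO replicate 2 and 10 without auxin replicate 2, and it was 0 on the log2(TPM + 1) scale. Calls of pathway genes were not checked with GC correction, which removed some calls of members.

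Of the other ligands, 1 of 5 tested rose, against 25.4% of all genes. NRG1, neuregulin 1, a ligand of ERBB3 and ERBB4, went from 3.46 ± 0.38 to 6.58 ± 0.38 CPM (mean ± SD, n = 3), a log2 fold change of 0.93 (edgeR adjusted p 0.000467, SE 0.11). In the list for shedding and trafficking of ligands, 1 of 9 tested genes rose and 5 fell, against 25.4% and 26.9% of all genes. RHBDD1, a rhomboid protease, rose by 0.31 on the log2 scale (edgeR adjusted p 0.00335). RHBDF1, an inactive rhomboid that carries the sheddase ADAM17 to the cell surface, and FRMD8, which stabilises that complex, fell by 1.72 and 1.38 (edgeR adjusted p 0.00213 and 0.000158). The sheddases ADAM17 and ADAM10, named after their values were seen, were not called, with log2 fold changes of 0.15 and -0.12 (edgeR adjusted p 0.188 and 0.453).

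In the list for receptor turnover and inhibition, 8 of 18 genes were higher and 2 lower, against 25.4% and 26.9% of all genes. PTPN1 and PTPN2, phosphatases that act on receptor tyrosine kinases, rose by 0.60 and 0.56 on the log2 scale (edgeR adjusted p 0.000393 and 0.00242). HGS, which sorts ubiquitinated receptors toward lysosomes, was the member of all 7 lists with the largest fall. It went from 84.8 ± 7.8 to 7.66 ± 1.76 CPM (mean ± SD, n = 3), a log2 fold change of -3.46 (edgeR adjusted p 8.91e-06, SE 0.17). CBLC, a ubiquitin ligase of the family that marks EGFR for degradation, fell by 1.69 (edgeR adjusted p 0.000445). HGS overlaps ARL16 on the opposite strand over 599 bases.

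Among 10 adaptors 1 rose and 4 fell, against 25.4% and 26.9% of all genes. PLCG1, phospholipase C gamma, fell by 2.76 on the log2 scale (edgeR adjusted p 9.23e-05), and GAB1, a docking protein, by 1.09 (edgeR adjusted p 9.17e-05), while CRK rose by 0.26 (edgeR adjusted p 0.00793). PLCG1 overlaps ZHX3 on the opposite strand over 18354 bases. Of 13 genes from RAS to ERK, 2 rose and 5 fell, against the same shares of all genes. ARAF, a RAF kinase, and HRAS fell by 2.30 and 1.58 (edgeR adjusted p 8.12e-06 and 4.44e-05), and NRAS rose by 0.27 (edgeR adjusted p 0.0183).

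The list of PI3-kinase and AKT genes, the branch that ERBB3 feeds, had 7 of 12 genes lower and 1 higher, against 26.9% and 25.4% of all genes. Whether any of these lists differed from all genes was not tested. AKT1, the main effector kinase, went from 156.9 ± 14.3 to 16.5 ± 2.5 CPM (mean ± SD, n = 3), a log2 fold change of -3.25 (edgeR adjusted p 3.6e-06, SE 0.13). PIK3CD, a catalytic subunit, fell by 2.45 (edgeR adjusted p 0.000227), and PIK3R3, a regulatory subunit, rose by 0.40 (edgeR adjusted p 0.0134). The median log2 fold change of the list was -0.27. Of the STAT genes, which encode transcription factors that receptors can activate, STAT5B rose by 1.02 (edgeR adjusted p 0.0179) and STAT3 fell by 0.45 (edgeR adjusted p 0.00164) on the log2 scale. PIK3CD overlaps an antisense gene, PIK3CD-AS2, over 15130 bases.

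**Figure D5:**
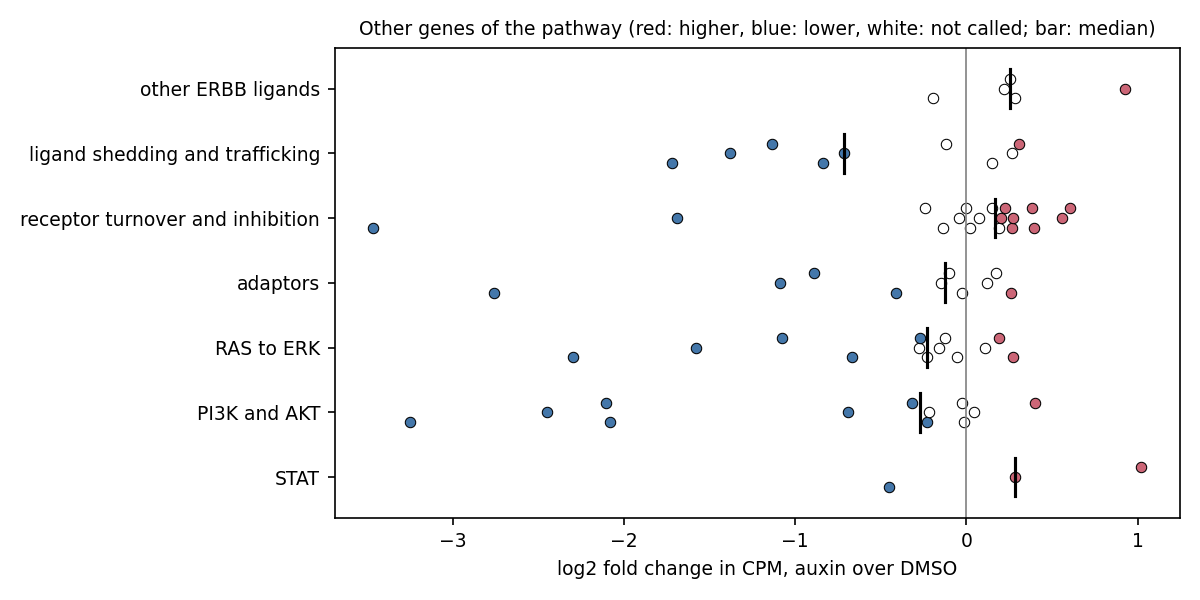
Log2 fold change in CPM, auxin over DMSO, of every tested gene of the pathway lists (red higher, blue lower, white not called), with the median of each list as a bar. HGS lies at -3.46 and AKT1 at -3.25, and the members themselves are not drawn.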

How the data were processed

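RNA-seq of 6 HCT116 libraries (3 auxin, 3 DMSO) was analysed from the tables of gene and transcript abundance. Per the labels' protocols, ribosomal RNA was depleted and the library kit was stranded. The submitters' processing notes name bcl2fastq 2.20, STAR, DESeq2 and GRCh38 (hg38); their settings, the counter, the annotation and the use of strand are not given in the sources used here. Per the file headers, the authors deposited expected counts, which need not be whole and are not normalized, and TPM, scaled by length and library. The deposited transcript tables also give the percent of a gene held by each transcript, and the deposited posterior SD of each count is used as an error signal of read assignment. All gene IDs were matched to GENCODE 29, and 746 numeric and spike-in IDs were left out.

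Expected counts were rounded and tested with edgeR 4.0.16 (R 4.3.3; filterByExpr, TMM, quasi-likelihood), adjusted over all 19725 genes. Transcript shares were tested with limma 3.58.1 on log2 odds with a prior count of 0.5, for transcripts with a mean of at least 10 counts. Both procedures were tested on simulated data. Levels by transcript class and the test of retained-intron share were added after seeing the data. Retained-intron and motif sequences came from GENCODE 29 transcripts and RefSeq (GRCh38.p14).

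The members and gene lists were chosen with earlier results of these data known. Named genes were the 9 members, up to 2 called genes with the largest change in each direction per list at a mean CPM of at least 1, the 2 most similar genes per member, cluster neighbours, and transcripts at 5% or more of a gene or called; some genes that the rule names are not reported here. Deviations of same-numbered libraries from their group means correlated at 0.59, 0.22 and 0.22 for replicates 1, 2 and 3. Only replicate 1, the deepest of both groups, stood out. DMSO replicate 2 correlated at 0.14 with auxin replicate 3, and DMSO replicate 3 at 0.27 with auxin replicate 2. Pairing by number is therefore not shown for replicates 2 and 3, and results by pair or block take it as given. P-values compare the group difference with the spread between these biological replicates, and the main tests did not use the replicate number.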

Additional observations from a re-analysis of the deposited data

How the results depend on the processing

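The 2 lower calls among members held under all 19 alternatives, with log2 fold changes between -3.17 and -1.77 for ERBB2 and between -3.26 and -1.70 for ERBB3. Members called higher numbered 5 with upper-quartile factors, 0 and 1 with limma on log2(TPM + 1) and log2(TPM + 0.1), 6 with the replicate block and 1 with GC-corrected offsets, against 3. They were 2 to 3 when 1 library was left out. The log2 fold change of EGFR was -0.037 on both TPM scales and -0.093 with GC correction, with or without the block, and that of EREG was -0.058 on both TPM scales. With the replicate block, 24 pathway genes were higher and 33 lower, and 12 member transcripts had a changed share. Pathway genes higher were 0 on both TPM scales and 7 to 18 when 1 library was left out, and pathway genes lower were 15 on log2(TPM + 1). Member transcripts with a changed share numbered 5 at a mean of at least 50 counts. Without GC correction, the block changed no other call of a member than those of EGFR, AREG and EREG. Added to the GC-corrected offsets, it raised the number of members called higher from 1 to 2 by the call of TGFA. Alternatives to the retained-intron shares and class levels were chosen after seeing the data. With the replicate block the log2 fold change of the retained-intron level was 0.69 for ERBB2 and -0.95 for ERBB3, both called. Leaving out 1 library gave 0.41 to 1.11 and -1.23 to -0.68, and called 1 of these 12 values. The shares rose under all 8, by 4.01 to 4.61 for ERBB2 and 1.86 to 2.79 for ERBB3 in log2 odds. The cause of these changes with the setting was not tested. Depth limits ERBB4 and the rarest ERBB3 transcripts.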
